A study of Caenorhabditis elegans with 43 samples.

Results

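Whole *C. elegans* worms of the complex I mutant *nuo-6(qm200)* were compared with wild-type N2 worms whose RNA was sequenced in the same batch. The comparison took the 6 *nuo-6* libraries and the 6 wild-type libraries of sequencing batch 2, which are 12 of the 43 libraries of the study. The other libraries came from mutants of *atfs-1* and *hif-1*, from *nuo-6;hif-1* worms, from a strain labelled NA238 and from wild-type worms of batches 1 and 3. All worms were collected as young adults before egg laying began, after growth at 20 °C on plates seeded with OP50 bacteria. Each group is 1 strain, *nuo-6(qm200)* is a single allele, and the RNA came from all tissues of the worm together, so fewer cells of a type and less RNA per cell cannot be told apart in any value below. The authors describe the samples of each genotype as independent, with RNA isolated separately for each. The labels do not say which worms of a group came from separate cultures, and the p-values measure the spread between these libraries.

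Complex I of the mitochondrial respiratory chain takes electrons from NADH and hands them to ubiquinone, which carries them on to complex III. *nuo-6* encodes a subunit of complex I, and worms with the *qm200* allele respire less, develop slowly and live long. When mitochondrial work is disturbed, worms change nuclear gene expression, through the transcription factor ATFS-1 among others, which induces chaperones such as HSP-6 and metabolic enzymes. Respiration that falls short also leaves more of the demand for ATP to glycolysis. The *nuo-6* mRNA itself had 122 to 214 (median 183) normalized CPM in *nuo-6* worms, against 114 to 141 (median 123) in wild-type worms (log2 fold change 0.48 ± 0.14, SE as in all fold changes here, adjusted p = 0.016 by limma with Benjamini-Hochberg adjustment). The allele is not a deletion of the gene, so this level does not check the labels.

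Between 21466920 and 25527946 reads were counted on genes in the 12 libraries. Values are given as normalized CPM, the authors' read counts scaled to a fixed library size and then between libraries, and fold changes are differences of mean log2(normalized CPM + 0.5), *nuo-6* minus wild-type, which understate the change of genes with little RNA. The first principal component held 46.5% of the variance and separated the groups, with scores from 22.4 to 55.6 in *nuo-6* worms and from -54.8 to -29.6 in wild-type worms. Libraries also differed within groups in RNA that changes as worms mature. The summed vitellogenin (yolk protein) RNA was 8630 to 92192 (median 59417) normalized CPM in *nuo-6* worms, against 22819 to 43662 (median 31112) in wild-type worms of the batch and 22613 to 76683 in wild-type libraries of the other batches, and the lowest library of each group was *nuo-6* replicate 2 and wild-type replicate 7. The molting genes, which are active in larvae, summed to 547 to 1643 (median 931) in *nuo-6* worms, against 963 to 5171 (median 1304) in wild-type worms, with these 2 libraries the highest of their groups.

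Of 13837 genes tested, 4345 passed an adjusted p under 0.05 (31.4%), 2433 of them higher (17.6%) and 1912 lower (13.8%) in *nuo-6* worms. All 6 *nuo-6* libraries lay above all 6 wild-type libraries for 1252 genes (9.05%) and below them for 842 (6.09%). These shares are the background for the counts that follow. The median log2 fold change over all genes was -0.03. A change of at least 2-fold was called for 888 genes that were higher (6.42%) and 509 that were lower (3.68%). Scaling by library size alone gave 1974 genes higher and 2255 lower, so the balance between the directions depended on the scaling. Of the genes called higher with groups that did not overlap, 944 of 1241 (76.1%) also lay above the 6 wild-type libraries of batches 1 and 3, and 578 of 820 called lower (70.5%) lay below them. The 75 gene lists used below differ widely in direction, from DAF-16 targets at the top to hedgehog-related genes at the bottom.

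**Figure D1:**
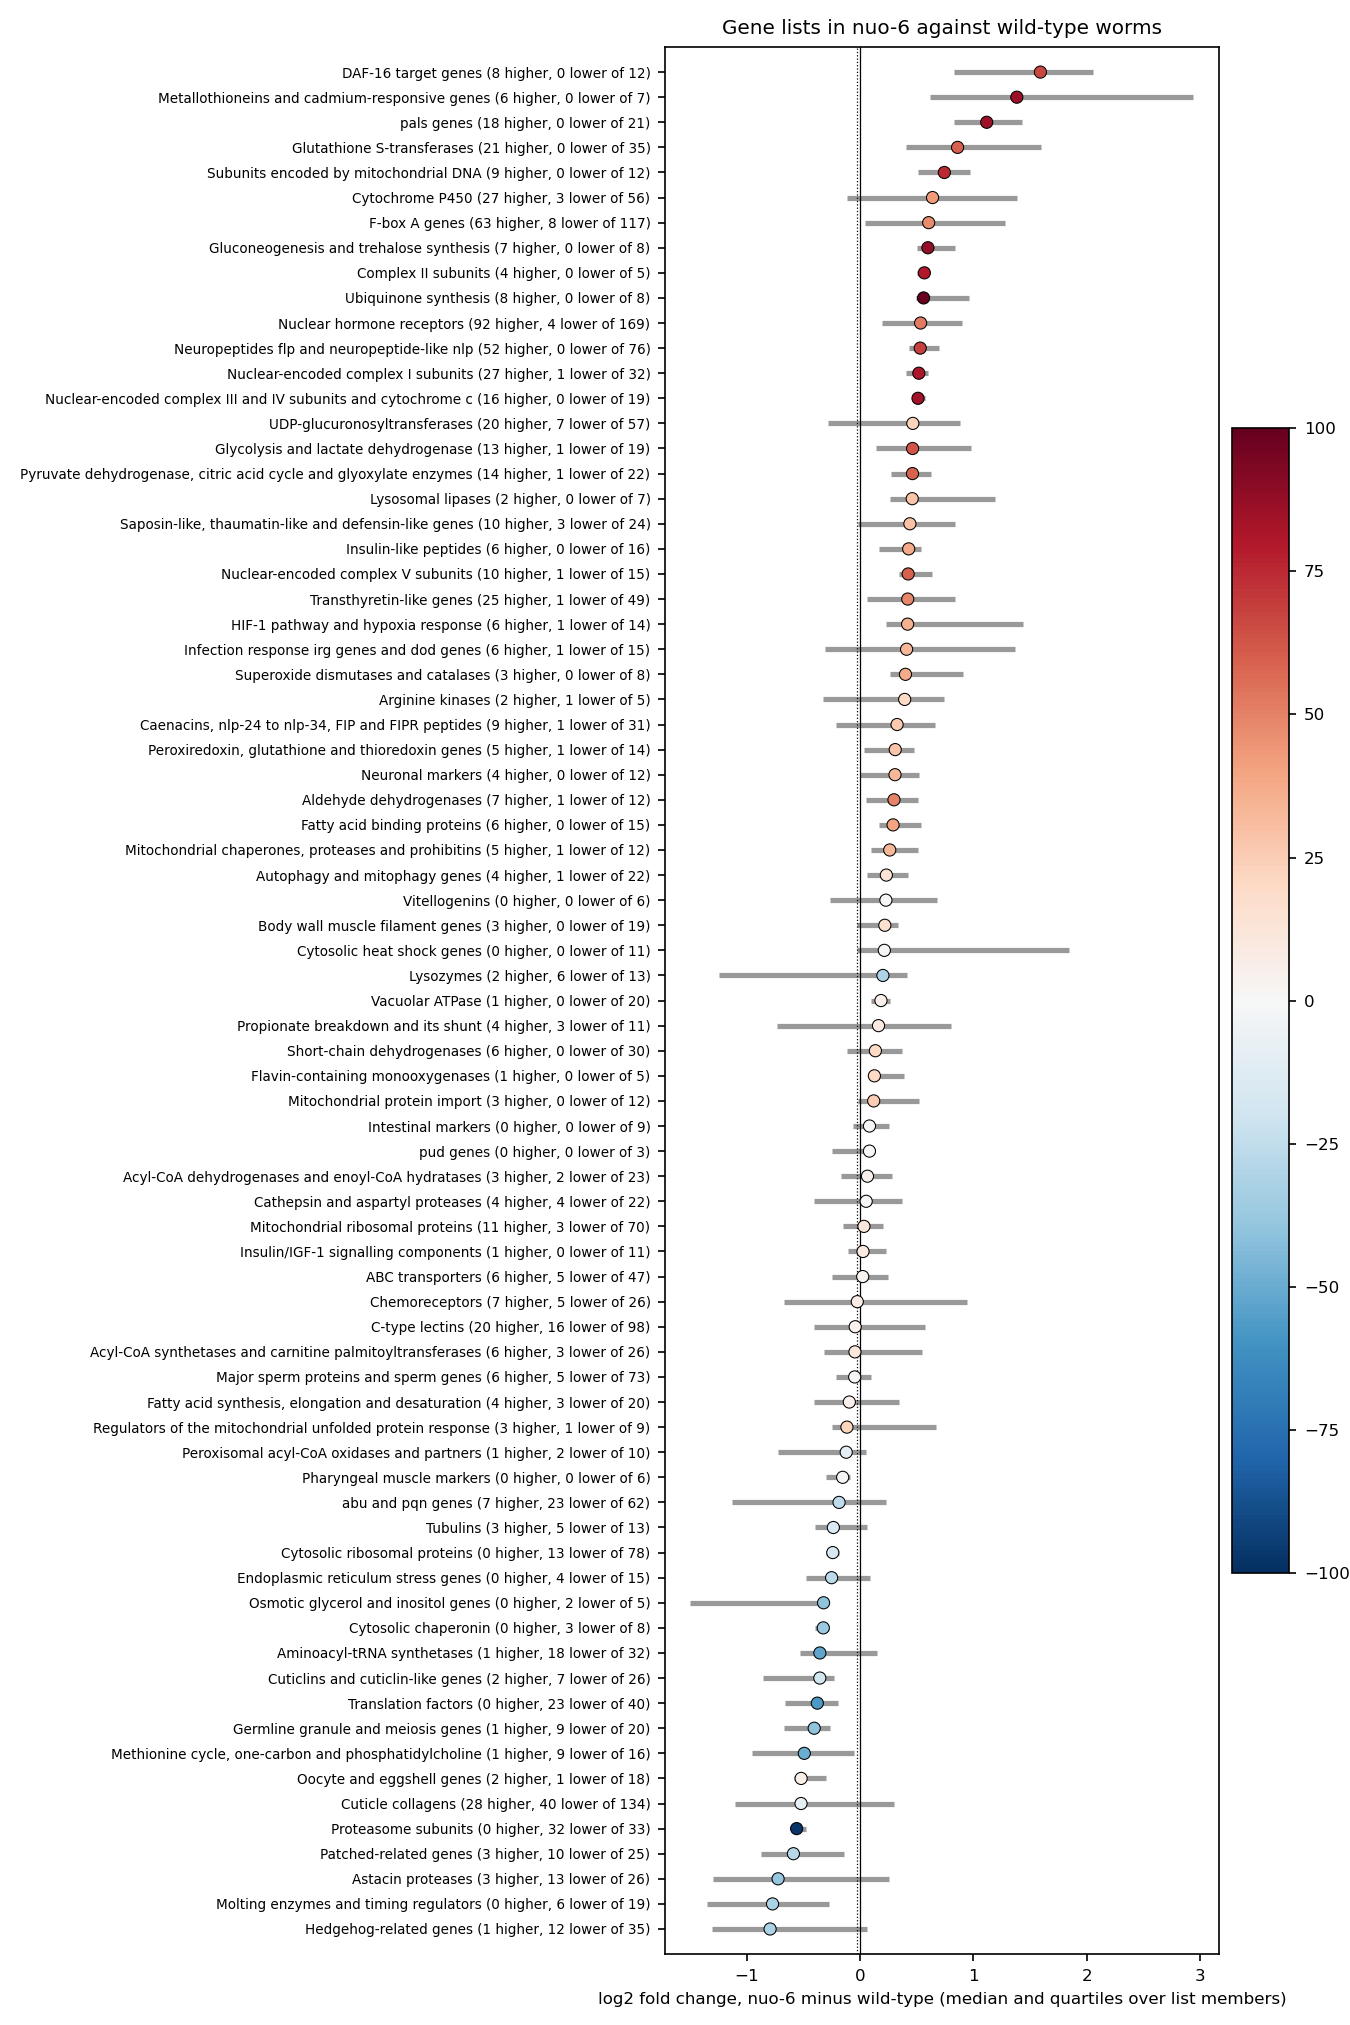
Median log2 fold change (point) and quartiles (bar) of the members of each gene list, *nuo-6* minus wild-type, with the number of members called higher and lower of those tested. Point colour gives the percent of members called higher minus the percent called lower, and the dotted line is the median of all genes tested. DAF-16 targets (1.59), *pals* genes (1.12) and glutathione S-transferases (0.86) lie to the right, the proteasome (-0.56) and molting genes (-0.77) to the left.

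Most of the 12 genes that rose most had little RNA in wild-type worms. *F15D4.5*, a protein-coding gene with no assigned role in the files (chromosome II, 13245376 to 13247774), had 175 to 302 (median 277) normalized CPM in *nuo-6* worms, against 1.19 to 3.27 (median 1.52) in wild-type worms. This was the largest rise by the naming rule, at 6.80 ± 0.20 (adjusted p = 4.5e-11) on the log2 scale. *F40D4.13* (chromosome V, 17155874 to 17157254) had 41.1 to 63.1 (median 50) in *nuo-6* worms, against 0.0389 to 0.294 (median 0.133) in wild-type worms, and *C38D9.2* (chromosome V, 17567150 to 17571742) had 69.4 to 149 (median 122) in *nuo-6* worms, against 0.437 to 2.05 (median 0.959) in wild-type worms. For all 3 genes no library of either group came near the other group, and the wild-type libraries of the other batches reached no more than 1.39, 0.446 and 0.771 normalized CPM. The unnamed genes *C07G1.7* (log2 fold change 4.68 ± 0.20), *F22B3.7* (4.63 ± 0.32) and *ZK177.9* (4.42 ± 0.30) were also among the 12 largest rises. *F22B3.7* was read 2 times in the wild-type libraries together and 1924 times in the *nuo-6* libraries, a ratio of 980.3 with a 95% counting interval of 271 to 8100, which covers counting error only.

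Several of the largest rises were of enzymes that act on lipids and foreign compounds. *acs-2* (chromosome V, 15567394 to 15569897), an acyl-CoA synthetase that feeds fatty acids into mitochondrial oxidation and is induced by fasting, had 328 to 963 (median 650.3) normalized CPM in *nuo-6* worms, against 14.6 to 56.7 (median 23) in wild-type worms (log2 fold change 4.56 ± 0.36, adjusted p = 1.3e-06). 3 cytochrome P450 genes, whose enzymes oxidise lipids and foreign compounds, stood in the same set. *cyp-14A4* rose by 5.19 ± 0.36 (adjusted p = 3.5e-07) on the log2 scale, *cyp-33C2* by 5.11 ± 0.53 (adjusted p = 1.5e-05) and *cyp-13A12* by 4.30 ± 0.61 (adjusted p = 0.00018). They varied among *nuo-6* libraries more than the genes above, with 6.81 to 104 (median 18) normalized CPM for *cyp-33C2* and 4.74 to 127 (median 30.2) for *cyp-13A12*. The noncoding RNA *tts-1* (chromosome X, 1504131 to 1504841), known as an abundant ribosome-associated transcript of long-lived worms, had 114 to 2525 (median 415) in *nuo-6* worms, against 3.32 to 83.5 (median 11.7) in wild-type worms (5.05 ± 0.83, adjusted p = 0.00053), and its lowest *nuo-6* library was close to its highest wild-type library. The C-type lectin gene *clec-17* rose by 4.48 ± 0.27 (adjusted p = 9.5e-08).

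Among the largest falls the arginine kinase gene *argk-1* (chromosome V, 16103894 to 16105952), whose enzyme stores and returns high-energy phosphate, came first. It had 0.275 to 1.51 (median 0.629) normalized CPM in *nuo-6* worms, against 22.2 to 345 (median 191) in wild-type worms (log2 fold change -6.64 ± 0.54, adjusted p = 1.6e-06), and the groups did not overlap. Its neighbour *cth-1* (chromosome V, 16100680 to 16102750), a cystathionine gamma-lyase gene, had 7.99 to 20.1 (median 14.7) in *nuo-6* worms, against 41.7 to 361 (median 227) in wild-type worms (-3.54 ± 0.42, adjusted p = 4.7e-05). *lys-4* (chromosome IV, 11621429 to 11623174), a lysozyme gene, had 2.67 to 17.7 (median 9.59) in *nuo-6* worms, against 165 to 271 (median 199) in wild-type worms (-4.48 ± 0.32, adjusted p = 5.0e-07). *hmit-1.1* (chromosome V, 18516789 to 18523875), a transporter of myo-inositol induced by osmotic stress, had 1.12 to 6.29 (median 3.7) in *nuo-6* worms, against 16.5 to 45 (median 29.5) in wild-type worms (-2.91 ± 0.33, adjusted p = 3.0e-05). *BE0003N10.6* (chromosome III, 1056230 to 1060061), which the files give no role, had 0.536 to 0.829 (median 0.746) in *nuo-6* worms, against 30 to 82.4 (median 46.5) in wild-type worms (-5.25 ± 0.23, adjusted p = 3.2e-09). *D1014.6* was read 3 times in all *nuo-6* libraries and 1656 times in wild-type worms (wild-type over *nuo-6* ratio 542, 95% counting interval 185 to 2630), and the adjacent *D1014.7* fell too (-3.26 ± 0.36, adjusted p = 2.7e-05).

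Several of these falls rest on the wild-type libraries of this batch. *srp-5*, annotated as a pseudogene of the serpin family (chromosome V, 7382021 to 7383309), had 0 to 0.0362 (median 0) in *nuo-6* worms, against 5 to 7.26 (median 6.32) in wild-type worms, but the 6 wild-type libraries of batches 1 and 3 held 0 to 0.0272 normalized CPM, no more than the *nuo-6* libraries. *argk-1* ranged over 1.69 to 32.5 in those wild-type libraries and *cth-1* over 19.4 to 99.8, still above every *nuo-6* library for *argk-1* but overlapping them for *cth-1*. The neighbouring genes *ZK218.5*, *ZK218.7* and *ZK218.11* spanned 0 to 8.17, 0 to 2.2 and 0 to 2.29 there, and each was at 0 in 1 or more of them. In wild-type worms of batch 2 they had medians of 22.4, 6.43 and 5.08, but wild-type replicate 4 held 0.21, 0.168 and 0.168. *ZK218.11* had 0 reads in all 6 *nuo-6* libraries, so that its RNA was at least 260.1-fold lower than in wild-type worms of batch 2 (floor of 3 reads over the group). *clec-258*, a C-type lectin gene, reached 1.85 in the other batches, against 0.456 to 18.7 (median 5.15) in batch 2. In contrast, *lys-4* (91.9 to 386), *hmit-1.1* (14.8 to 34.2) and *BE0003N10.6* (6.63 to 51.3) lay above every *nuo-6* library in the other wild-type batches as well. So did *D1014.6*, at 0.832 to 18.8 there and 0 to 0.0414 in *nuo-6* libraries. Its neighbour *D1014.7* spanned 0.306 to 16 there and overlapped the *nuo-6* libraries, which held 0.145 to 0.398. What set the wild-type libraries of batch 2 apart was not tested.

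**Figure D2:**
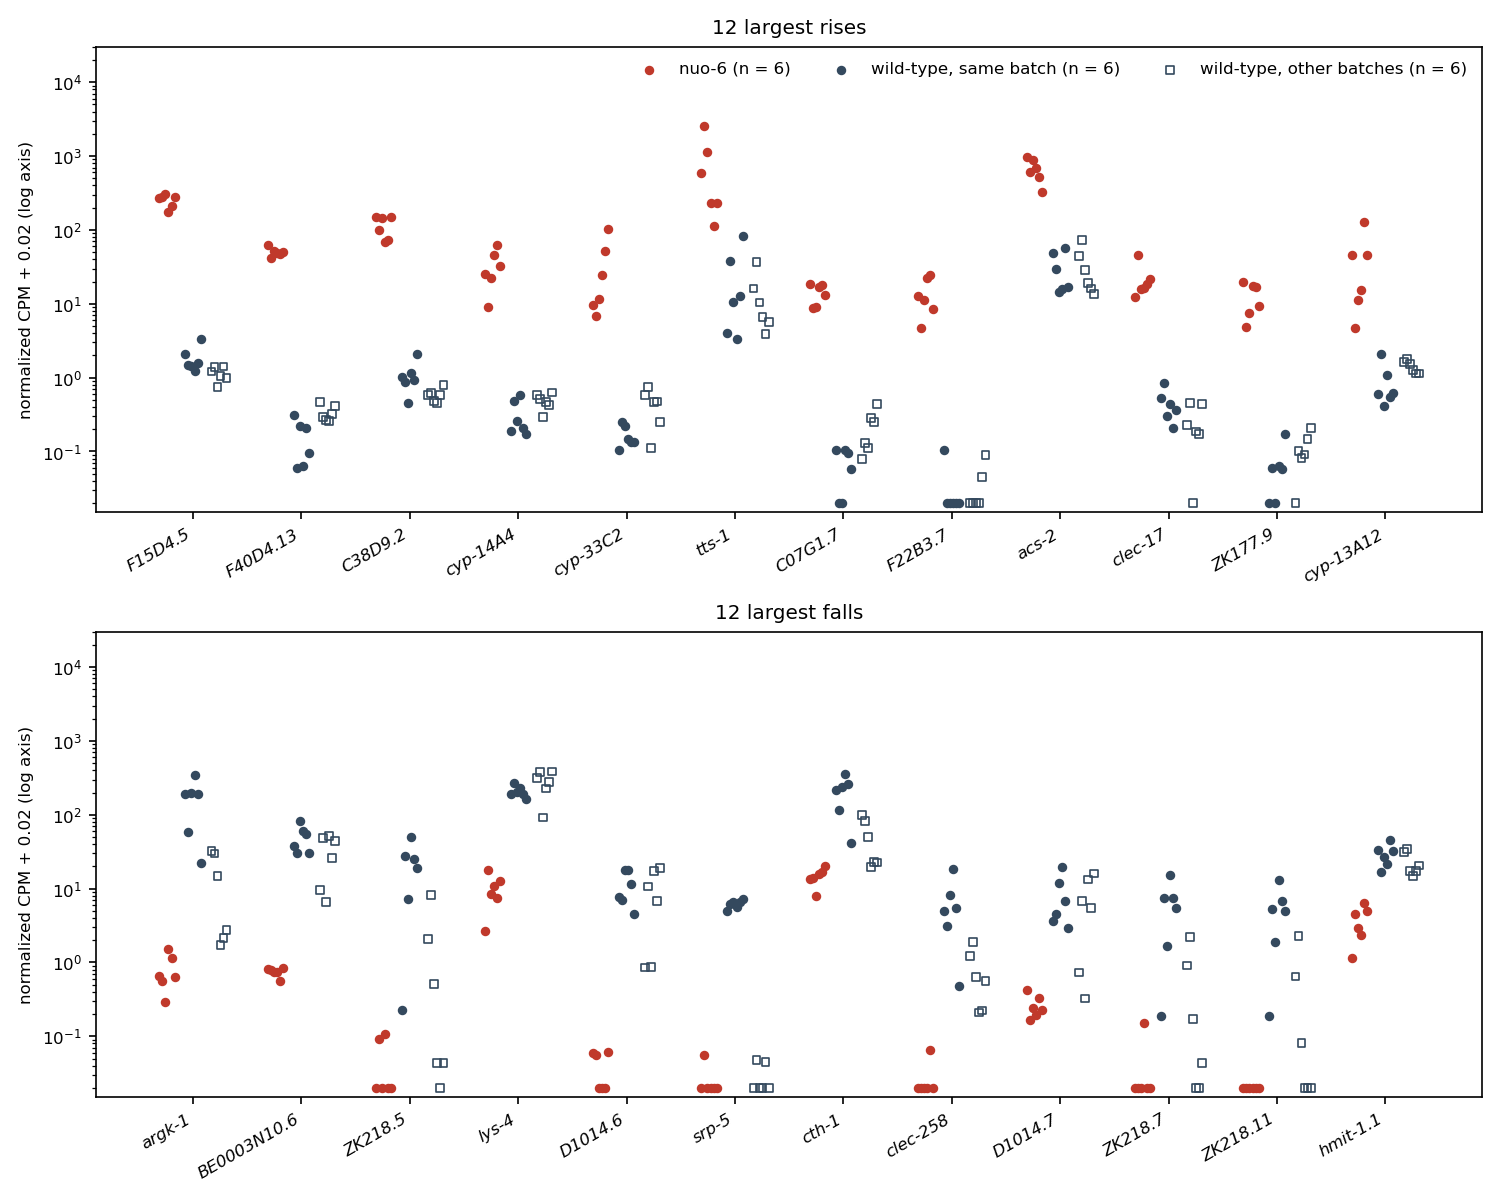
Normalized CPM plus 0.02 in each library (log axis) for the 12 largest rises and the 12 largest falls, with *nuo-6* (red), wild-type worms of the same batch (filled) and wild-type worms of batches 1 and 3 (open squares), 6 libraries each. For the rises the open squares lie near the filled wild-type points, while for *srp-5* they lie with the *nuo-6* libraries at 0 to 0.0272 normalized CPM before the offset.

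RNA for the respiratory chain was higher in *nuo-6* worms across its complexes. Of the 32 nuclear genes listed for complex I, 27 rose and 1 fell (median log2 fold change 0.52), and their RNA summed to 5363 to 8044 (median 7255) normalized CPM in *nuo-6* worms, against 4547 to 5381 (median 4870) in wild-type worms, which overlapped. *gas-1*, the subunit that forms part of the quinone binding site, had 232 to 356 (median 332) in *nuo-6* worms, against 149.7 to 238 (median 177) in wild-type worms (0.79 ± 0.14, adjusted p = 0.00081), and *nduf-7* had 191 to 294 (median 266) in *nuo-6* worms, against 132 to 168 (median 148) in wild-type worms (0.74 ± 0.12, adjusted p = 0.00046). The 1 gene that fell was *nduf-2.2* (-0.63 ± 0.11, adjusted p = 0.0011), a paralogue of *gas-1*. Complex II gained in 4 of 5 genes, among them *sdha-1* (0.70 ± 0.15, adjusted p = 0.0036), the flavoprotein subunit, and *mev-1* (0.57 ± 0.14, adjusted p = 0.0089). For complexes III and IV and cytochrome c, 16 of 19 rose and none fell, with 7 above all wild-type libraries of the batch. *isp-1*, the Rieske iron-sulphur protein of complex III, had 459.7 to 649 (median 595) in *nuo-6* worms, against 322 to 429.9 (median 383) in wild-type worms (0.62 ± 0.11, adjusted p = 0.00076), and the cytochrome c gene *cyc-2.1* had 672 to 923 (median 813) in *nuo-6* worms, against 444 to 575 (median 479) in wild-type worms (0.69 ± 0.11, adjusted p = 0.00035). For ATP synthase, 10 of 15 genes rose, and *asb-1* fell (-0.59 ± 0.14, adjusted p = 0.0051) while its paralogue *asb-2* rose (0.72 ± 0.14, adjusted p = 0.0022).

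The 12 protein-coding genes of mitochondrial DNA had the highest median of the respiratory lists (0.74), with 9 called higher and 0 lower. They varied strongly among *nuo-6* libraries. The complex I subunit *nduo-5* had 1034 to 3218 (median 1708) in *nuo-6* worms, against 719 to 908 (median 820.1) in wild-type worms (1.10 ± 0.27, adjusted p = 0.0077), and *ctc-2* of cytochrome c oxidase had 1131 to 2837 (median 2191) in *nuo-6* worms, against 875 to 1143 (median 1014) in wild-type worms (1.02 ± 0.20, adjusted p = 0.0015). The count fell to 4 without *nuo-6* replicate 1 or without wild-type replicate 5, and to 5 without wild-type replicate 4 or 8. The wild-type libraries of the other batches held 1125 to 2257 of *ctc-2* and 912 to 1389 of *nduo-5*, and overlapped the *nuo-6* libraries. Libraries were made from polyadenylated RNA, which mitochondrial transcripts enter through short tails, and how this bears on the values was not tested. All 8 genes listed for ubiquinone synthesis rose (0.56), 5 of them without overlap of the groups. *coq-8* had 123 to 236 (median 181) in *nuo-6* worms, against 71 to 96.1 (median 91) in wild-type worms (1.04 ± 0.15, adjusted p = 0.00017) and *clk-1*, the hydroxylase of the pathway, had 33.3 to 46.1 (median 42.8) in *nuo-6* worms, against 16.3 to 24.3 (median 22.3) in wild-type worms (0.94 ± 0.12, adjusted p = 9.5e-05).

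**Figure D3:**
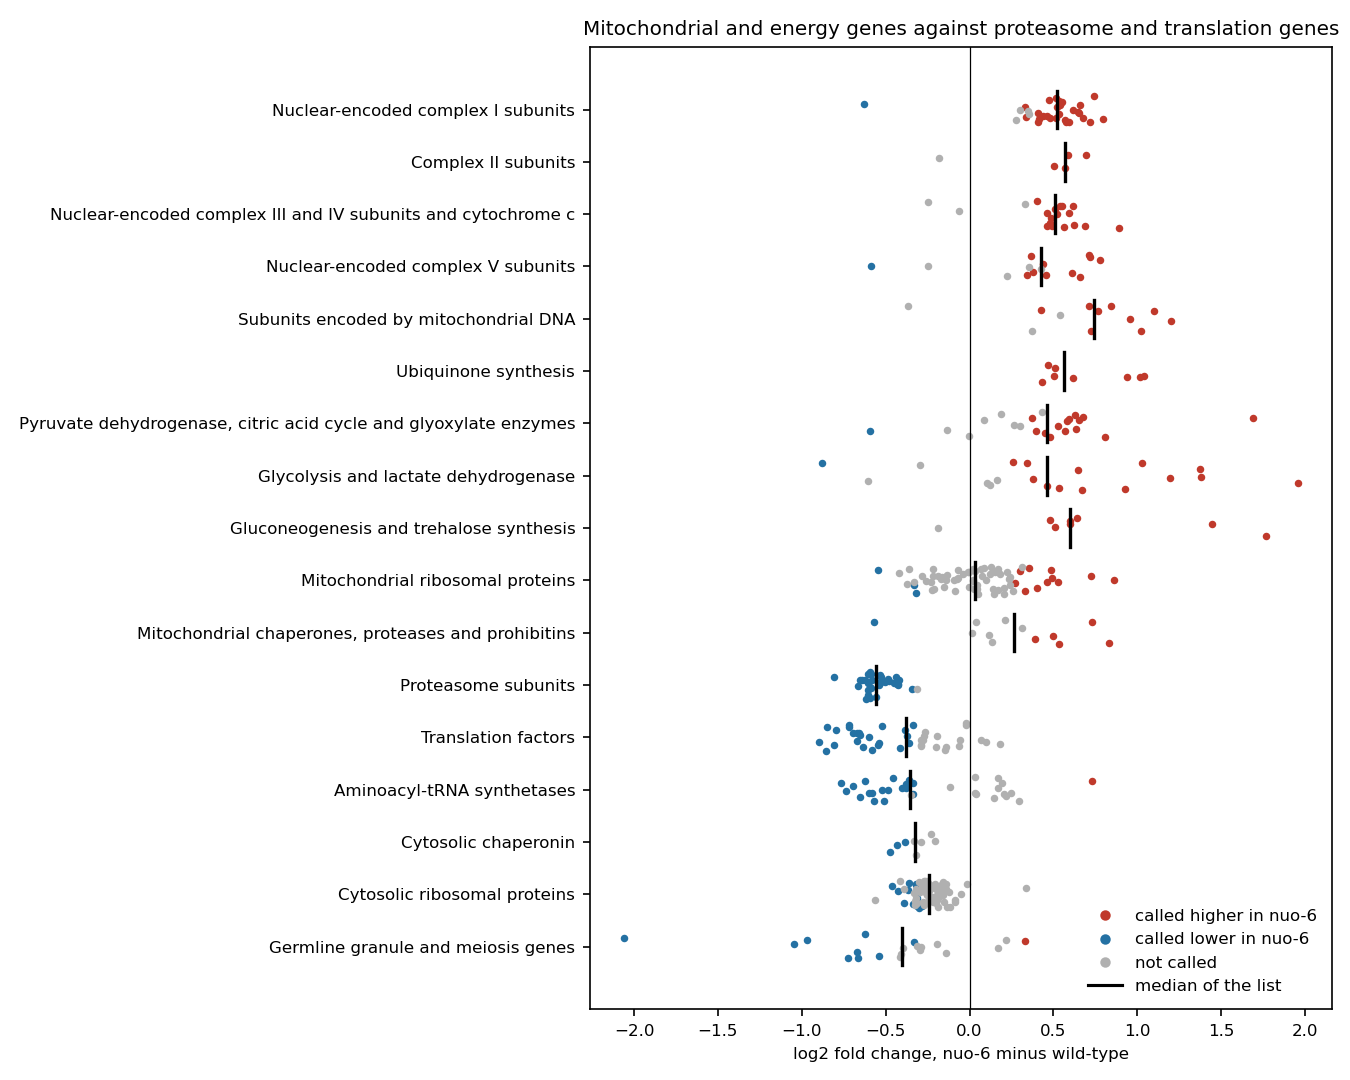
Log2 fold change, *nuo-6* minus wild-type, of every tested member (point) of 17 gene lists, with the list median (bar) and the call of each member in colour. Most respiratory chain, ubiquinone, citric acid cycle and glycolysis genes lie right of 0, all proteasome genes left of 0, and the mitochondrial ribosomal proteins on both sides.

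The machinery that makes and folds mitochondrial proteins moved less evenly. Of 70 mitochondrial ribosomal protein genes 11 rose and 3 fell, and the list's median of 0.03 turned to -0.05 under scaling by library size alone, when 7 were called higher and 9 lower, so no direction is given. The share of its members called, in either direction, was below that of all genes. Of 12 mitochondrial chaperone, protease and prohibitin genes 5 rose, and 1 fell. *hsp-6*, the mitochondrial HSP70 and the usual reporter of the mitochondrial unfolded protein response, had 845 to 1977 (median 1257) normalized CPM in *nuo-6* worms, against 649 to 978 (median 764) in wild-type worms (0.73 ± 0.17, adjusted p = 0.0055), which overlapped. *dnj-10*, its J-domain partner, had 79.6 to 123 (median 109.6) in *nuo-6* worms, against 49 to 67.3 (median 57.5) in wild-type worms (0.83 ± 0.13, adjusted p = 0.00032) without overlap, and the protease gene *clpp-1* rose by 0.53 ± 0.14 (adjusted p = 0.012). The other classical chaperone of the response, *hsp-60*, was the member that fell, with 326 to 658 (median 520.2) in *nuo-6* worms, against 604 to 831 (median 784) in wild-type worms (-0.57 ± 0.17, adjusted p = 0.02). Of 9 regulators of the response, *haf-1*, a peptide exporter, had 7.95 to 11.4 (median 9.45) in *nuo-6* worms, against 2.78 to 4.85 (median 3.81) in wild-type worms (1.25 ± 0.15, adjusted p = 4.3e-05) and *atfs-1* had 67.5 to 206 (median 153) in *nuo-6* worms, against 55.3 to 89.8 (median 66.4) in wild-type worms (0.94 ± 0.25, adjusted p = 0.011). *zip-3*, a bZIP protein that restrains ATFS-1, rose as well (0.67 ± 0.20, adjusted p = 0.02), and *lin-65*, a chromatin factor of the response, fell (-0.43 ± 0.11, adjusted p = 0.0089). Of 12 import genes 3 rose, all of the inner membrane translocase: *timm-17B.2* (1.73 ± 0.21, adjusted p = 6.5e-05), *timm-23* (0.93 ± 0.11, adjusted p = 5.5e-05) and *timm-17B.1* (0.56 ± 0.14, adjusted p = 0.0091).

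Most genes listed for glycolysis, for gluconeogenesis and trehalose synthesis and for the citric acid cycle rose. In glycolysis 13 of 19 genes were higher, 10 of them without overlap, and 1 was lower. The list summed to 6010 to 8920 (median 8411) normalized CPM in *nuo-6* worms, against 4346 to 4515 (median 4410) in wild-type worms, with no overlap. The aldolase gene *aldo-1* had 603 to 1012 (median 883) in *nuo-6* worms, against 175 to 281 (median 213) in wild-type worms (1.96 ± 0.14, adjusted p = 5.7e-07). The glyceraldehyde 3-phosphate dehydrogenase genes split, with *gpd-2* (1.38 ± 0.13, adjusted p = 6.9e-06) and *gpd-3* (1.19 ± 0.10, adjusted p = 1.5e-06) higher and *gpd-4* lower (-0.88 ± 0.23, adjusted p = 0.011). Since *gpd-2* with *gpd-3*, and *gpd-1* with *gpd-4*, are near-identical copies, reads common to both copies of a pair could not be assigned to either by sequence. How this bears on their values was not tested. *ldh-1*, the lactate dehydrogenase that returns NADH to NAD+, had 133 to 270.2 (median 227) in *nuo-6* worms, against 61.2 to 86.3 (median 79.4) in wild-type worms (1.37 ± 0.19, adjusted p = 0.00013). In gluconeogenesis and trehalose synthesis 7 of 8 genes rose, among them the phosphoenolpyruvate carboxykinase gene *pck-1* with 445 to 638 (median 544) in *nuo-6* worms, against 138 to 194 (median 153) in wild-type worms (1.77 ± 0.12, adjusted p = 4.0e-07) and the trehalose synthase gene *tps-1* (1.44 ± 0.27, adjusted p = 0.0014).

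Of 22 genes of pyruvate dehydrogenase, the citric acid cycle and the glyoxylate shunt, 14 rose and 1 fell. *icl-1*, the bifunctional enzyme of the glyoxylate shunt that lets worms make sugar from fat, had 1202 to 3211 (median 1704) in *nuo-6* worms, against 466 to 633 (median 534) in wild-type worms (1.69 ± 0.21, adjusted p = 5.9e-05), the largest change of the list. Citrate synthase *cts-1* (0.65 ± 0.14, adjusted p = 0.0039), fumarase *fum-1* (0.67 ± 0.11, adjusted p = 0.00061) and the isocitrate dehydrogenase subunit *idhg-2* (0.81 ± 0.11, adjusted p = 0.00011) followed. The gene that fell was *sucg-1*, a succinyl-CoA ligase subunit (-0.59 ± 0.13, adjusted p = 0.0031).

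Fatty acid binding proteins, carriers of lipids in and between cells, rose in 6 of 15 genes and fell in none (median 0.29). Apart from *acs-2*, the acyl-CoA synthetase genes *acs-21* (1.48 ± 0.19, adjusted p = 7.3e-05) and *acs-11* (1.20 ± 0.13, adjusted p = 1.6e-05) rose and *acs-20* fell (-1.11 ± 0.28, adjusted p = 0.0091), though not against all 12 wild-type libraries (-0.53 on the log2 scale, not called). Their list, with carnitine palmitoyltransferases, had 6 of 26 higher and 3 lower (23.1% and 11.5%, near the 17.6% and 13.8% of all genes tested). Among the delta-9 desaturases, *fat-7* had 2.94 to 18.2 (median 14.5) in *nuo-6* worms, against 56.4 to 101 (median 67.9) in wild-type worms (-2.85 ± 0.41, adjusted p = 0.00018), while its close relative *fat-6* had 449.5 to 1187 (median 609.7) in *nuo-6* worms, against 259 to 459 (median 355) in wild-type worms (0.91 ± 0.23, adjusted p = 0.0086). *sbp-1*, the SREBP homologue that drives lipid synthesis genes, rose (0.92 ± 0.18, adjusted p = 0.002). Of the 7 lysosomal lipase genes 2 rose, *lipl-1* (1.93 ± 0.63, adjusted p = 0.031) and *lipl-3* (1.38 ± 0.26, adjusted p = 0.0012), and *lipl-1* lost its call when any one of 7 libraries was left out. Against all 12 wild-type libraries 5 lipase genes were higher.

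Propionate is broken down in worms by a vitamin B12-dependent route and, when that is slow, by a shunt. The 4 enzymes of the B12-dependent route were all higher: *pcca-1* had 481 to 564 (median 502) in *nuo-6* worms, against 217 to 327 (median 247) in wild-type worms (0.99 ± 0.11, adjusted p = 2.3e-05), and *mce-1* (0.91 ± 0.12, adjusted p = 0.00011), *pccb-1* (0.85 ± 0.11, adjusted p = 0.0001) and *mmcm-1* (0.76 ± 0.08, adjusted p = 1.3e-05) followed. Of the shunt, *hphd-1* had 124 to 321 (median 244) in *nuo-6* worms, against 327 to 696 (median 617) in wild-type worms (-1.27 ± 0.24, adjusted p = 0.0012), and *acdh-1* (-1.18 ± 0.29, adjusted p = 0.0075) and *hach-1* (-1.02 ± 0.19, adjusted p = 0.0014) were lower too (*acdh-1* lost its call in a fit of all 43 libraries with a batch term), while *ech-6* (-0.44) and *alh-8* (-0.22) did not pass the test. The nuclear hormone receptor genes *nhr-68* (-1.02 ± 0.23, adjusted p = 0.0038) and *nhr-114* (-2.19 ± 0.38, adjusted p = 0.00078), known for their part in switching on the shunt and in the use of vitamin B12 and methionine, were 2 of only 4 receptor genes that were lower. The methionine cycle is the other user of vitamin B12. A list of its genes with those of one-carbon and phosphatidylcholine metabolism was lower in 9 of 16 genes (median -0.49), 6 of them without overlap. The S-adenosylmethionine synthetase gene *sams-3* had 17.5 to 32.9 (median 25.1) in *nuo-6* worms, against 69.4 to 102 (median 88.5) in wild-type worms (-1.75 ± 0.15, adjusted p = 2.3e-06). *ahcy-1*, which hydrolyses S-adenosylhomocysteine, had 776 to 1212 (median 1023) in *nuo-6* worms, against 1579 to 3712 (median 2367) in wild-type worms (-1.30 ± 0.19, adjusted p = 0.00018), and methionine synthase *metr-1*, which needs vitamin B12, had 160.3 to 229.9 (median 209) in *nuo-6* worms, against 348 to 471 (median 405) in wild-type worms (-1.06 ± 0.12, adjusted p = 2.9e-05). *cbs-1*, a cystathionine beta-synthase gene, was the 1 gene that rose (0.87 ± 0.25, adjusted p = 0.016).

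Several families of stress resistance and detoxification genes had more members higher than the 17.6% of all genes tested, namely DAF-16 targets, glutathione S-transferases, cytochrome P450, UDP-glucuronosyltransferases and cadmium-responsive genes. Flavin-containing monooxygenases, with 1 of 5 higher, and autophagy genes, with 4 of 22, lay near that share. Of 12 listed targets of DAF-16, the FOXO transcription factor that acts when insulin signalling is low, 8 rose and none fell (median 1.59). The list is a choice of known targets and does not stand for all of them. Of the *pud* genes, known from dauer worms and from *daf-2* mutants with low insulin signalling, 3 were tested and none passed. The mitochondrial superoxide dismutase *sod-3* had 27.5 to 50.8 (median 38.7) normalized CPM in *nuo-6* worms, against 2.81 to 4.59 (median 3.83) in wild-type worms (3.21 ± 0.16, adjusted p = 2.0e-08), without overlap. *sodh-1*, an alcohol dehydrogenase, had 214 to 832 (median 604) in *nuo-6* worms, against 13.9 to 142 (median 27.1) in wild-type worms (3.88 ± 0.47, adjusted p = 5.5e-05). The metallothionein gene *mtl-1* had 15 to 170.2 (median 40.3) in *nuo-6* worms, against 1.66 to 16.1 (median 3.46) in wild-type worms (3.15 ± 0.58, adjusted p = 0.0011), and the wild-type libraries of the other batches were lower still, at 0.149 to 0.517. Of the 11 genes of the insulin pathway itself only *ist-1* rose (0.68 ± 0.17, adjusted p = 0.0086). Among the genes that handle peroxide and thiols, the largest rises were those of mitochondrial enzymes, *trxr-2* (1.26 ± 0.12, adjusted p = 5.9e-06), *trx-2* (0.93 ± 0.13, adjusted p = 0.00014) and *prdx-3* (0.76 ± 0.12, adjusted p = 0.00033), while *msra-1*, a methionine sulphoxide reductase, fell (-0.95 ± 0.22, adjusted p = 0.005). The list's 5 rises became 3 under scaling by library size alone, and 3 without *nuo-6* replicate 1 or 5 or wild-type replicate 5, 6 or 8.

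Of 35 glutathione S-transferase genes, whose enzymes attach glutathione to foreign compounds, 21 rose and none fell. *gst-4*, a target of the stress factor SKN-1, had 31.2 to 147 (median 95.5) in *nuo-6* worms, against 12.1 to 23.4 (median 18.4) in wild-type worms (2.20 ± 0.29, adjusted p = 0.00011). *gst-33* and *gst-44* rose more on average but with a wide spread, at 2.57 to 186 (median 33.9) and 1.3 to 107 (median 18.2) normalized CPM in *nuo-6* worms. Of 56 cytochrome P450 genes 27 rose and 3 fell, and of 57 UDP-glucuronosyltransferase genes, which attach sugar acids, 20 rose and 7 fell. *ugt-62* had 152 to 773 (median 452) in *nuo-6* worms, against 66.8 to 105 (median 87.9) in wild-type worms (2.15 ± 0.35, adjusted p = 0.00046) and *ugt-61* had 25.1 to 68.6 (median 54.4) in *nuo-6* worms, against 6.54 to 11.6 (median 9.8) in wild-type worms (2.20 ± 0.25, adjusted p = 3.1e-05). Export pumps of the ABC family did not follow as a list (6 of 47 higher, 11 against all 12 wild-type libraries, and 5 lower), and the neighbouring genes *pgp-5* (-2.05 ± 0.33, adjusted p = 0.0004) and *pgp-6* (-2.64 ± 0.37, adjusted p = 0.00016) fell. Cadmium-responsive genes rose, with *cdr-2* at 70.7 to 275 (median 179.7) in *nuo-6* worms, against 20.8 to 27.9 (median 22.5) in wild-type worms (2.88 ± 0.26, adjusted p = 4.2e-06) and *cdr-4* at 112 to 642 (median 327) in *nuo-6* worms, against 19.2 to 175 (median 24.8) in wild-type worms (3.01 ± 0.54, adjusted p = 0.001).

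Of 14 genes listed for the hypoxia pathway 6 rose, and all of those lay above all 12 wild-type libraries of the study. The list holds regulators of the hypoxia factor HIF-1 beside its targets, so the count gives no direction of HIF-1 activity. *sqrd-1* and *ethe-1*, mitochondrial enzymes of hydrogen sulphide oxidation, rose by 2.35 ± 0.13 (adjusted p = 4.7e-08) and 1.09 ± 0.15 (adjusted p = 0.00013), and *nhr-57*, a standard HIF-1 target, had 4.85 to 13.4 (median 7.43) in *nuo-6* worms, against 1.39 to 3.23 (median 2.58) in wild-type worms (1.55 ± 0.23, adjusted p = 0.00027). *ftn-1*, an intestinal ferritin, had 8.25 to 35.7 (median 11.2) in *nuo-6* worms, against 1.09 to 3.45 (median 1.83) in wild-type worms (2.54 ± 0.33, adjusted p = 8.9e-05). *rhy-1*, which restrains HIF-1 and is itself its target, fell (-1.14 ± 0.28, adjusted p = 0.0078), and *hif-1* (0.36), *egl-9* (0.32) and *vhl-1* (0.25) did not pass the test, although *hif-1* did so in a fit of all 43 libraries with a batch term. None of 11 cytosolic heat shock genes passed the limma test, none had an unadjusted p under 0.05 and neither edgeR nor DESeq2 called any. Against all 12 wild-type libraries 3 were higher and 1 lower. Of them, *hsp-16.2* and *hsp-70* varied widely within both groups. *hsp-16.2* had 15.7 to 863 (median 149.6) in *nuo-6* worms, against 3.74 to 364 (median 19.8) in wild-type worms, and *hsp-70* had 7.5 to 3405 (median 382) in *nuo-6* worms, against 2.86 to 986 (median 54.1) in wild-type worms. Of 15 genes of the endoplasmic reticulum, 4 fell, among them the protein disulphide isomerases *pdi-1* (-0.55 ± 0.11, adjusted p = 0.0021) and *pdi-3* (-0.69 ± 0.13, adjusted p = 0.0015), and none rose. Against all 12 wild-type libraries 2 were lower and 2 higher. Of 22 autophagy genes 4 rose, including the cargo receptor gene *sqst-1* with 115 to 818 (median 224) in *nuo-6* worms, against 44.9 to 119 (median 66) in wild-type worms (1.74 ± 0.46, adjusted p = 0.011) and the mitophagy gene *dct-1* (0.91 ± 0.30, adjusted p = 0.032), and *epg-3* fell (-0.64 ± 0.14, adjusted p = 0.0032). The autophagy count fell to 1 under scaling by library size alone and to 1 or 2 without any one of *nuo-6* replicates 1, 2 and 3 or wild-type replicates 4 to 8, and *dct-1* lost its call in 7 of these.

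Families known from the response to infection split by kind. All 21 *pals* genes tested had positive log2 fold changes and 18 rose (median 1.12). They are known as genes switched on by microsporidia and viruses. *pals-6* had 7.95 to 49 (median 10.1) in *nuo-6* worms, against 0.428 to 4.14 (median 0.76) in wild-type worms (3.39 ± 0.49, adjusted p = 0.00019) and *pals-14* had 4.64 to 31.9 (median 7.25) in *nuo-6* worms, against 0.256 to 4.33 (median 0.469) in wild-type worms (3.04 ± 0.54, adjusted p = 0.00088). The RNA of all listed *pals* genes, tested or not, summed to 113 to 230.2 (median 152) normalized CPM in *nuo-6* worms, against 55.2 to 65.8 (median 57.2) in wild-type worms, with no overlap. Of the 21 tested, 10 lay above all 12 wild-type libraries of the study. Of 117 F-box A genes, which encode adaptors of ubiquitin ligases, 63 rose and 8 fell. The lower count was 4 without wild-type replicate 9, 5 without wild-type replicate 4 and 16 against all 12 wild-type libraries. *fbxa-166* had 3.88 to 6.59 (median 4.55) in *nuo-6* worms, against 0.171 to 0.673 (median 0.48) in wild-type worms (2.48 ± 0.18, adjusted p = 5.3e-07). For *fbxa-192*, at 6.96 to 8.4 (median 7.38) in *nuo-6* worms, against 0.428 to 1.37 (median 0.773) in wild-type worms, and *fbxa-193*, at 5.01 to 8.68 (median 7.11) in *nuo-6* worms, against 0.311 to 1.33 (median 0.714) in wild-type worms, the wild-type libraries of the other batches spanned 2.62 to 9.74 and 1.58 to 8.78, overlapping *nuo-6* worms.

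Antibacterial gene families differed in how many members rose and fell. Of 24 saposin-like, thaumatin-like and defensin-like genes 10 rose and 3 fell, and of 15 *irg* and *dod* genes, named for their response to infection and to DAF-16, 6 rose and 1 fell. C-type lectins were higher in 20 and lower in 16 of 98 genes (20.4% and 16.3%, against 17.6% and 13.8% of all genes tested), with *clec-222* at 6.52 to 23.2 (median 17.3) in *nuo-6* worms, against 0.341 to 2.44 (median 1.54) in wild-type worms (3.15 ± 0.34, adjusted p = 2.3e-05) and *clec-47* at 1.96 to 7.78 (median 4.89) in *nuo-6* worms, against 21.8 to 46.8 (median 32.8) in wild-type worms (-2.77 ± 0.28, adjusted p = 1.1e-05). Of 13 lysozyme genes 6 fell, including *ilys-5* with 19.1 to 168 (median 99.3) in *nuo-6* worms, against 359 to 697 (median 490.0) in wild-type worms (-2.68 ± 0.41, adjusted p = 0.0003) besides *lys-4*, and 2 rose, of which *lys-2* changed most (1.03 ± 0.31, adjusted p = 0.021). The list's median was positive (0.20) although more members fell than rose. Small secreted peptides of the epidermis rose in 9 of 31 genes, with *nlp-28* at 25.7 to 50.6 (median 32) in *nuo-6* worms, against 3.15 to 11.4 (median 9.72) in wild-type worms (2.07 ± 0.28, adjusted p = 0.00012). The defensin-like gene *abf-2* had 4.64 to 11 (median 6.06) in *nuo-6* worms, against 0.233 to 0.835 (median 0.583) in wild-type worms (2.76 ± 0.22, adjusted p = 1.3e-06), and *dod-22*, an immune gene of the intestine, had 26.1 to 84.1 (median 51.2) in *nuo-6* worms, against 3.11 to 10.8 (median 4.91) in wild-type worms (3.07 ± 0.31, adjusted p = 1.1e-05). Of 49 transthyretin-like genes, a secreted family of mostly unknown function, 25 rose and 1 fell.

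The proteasome moved as a whole. It degrades proteins tagged with ubiquitin, and 32 of its 33 subunit genes were lower in *nuo-6* worms, with 28 below every wild-type library of the batch. Log2 fold changes ran from -0.81 to -0.31 (median -0.56). The summed level was 3903 to 4981 (median 4164) normalized CPM in *nuo-6* worms, against 5741 to 6877 (median 6058) in wild-type worms. The lid subunit *rpn-5* had 97.2 to 159 (median 127) in *nuo-6* worms, against 188 to 243 (median 229) in wild-type worms (-0.81 ± 0.12, adjusted p = 0.0002), the catalytic core subunit *pbs-2* had 89.6 to 131 (median 113) in *nuo-6* worms, against 173 to 187 (median 177) in wild-type worms (-0.66 ± 0.10, adjusted p = 0.00028) and the ATPase subunit *rpt-5* had 127 to 158 (median 137) in *nuo-6* worms, against 204 to 239 (median 216) in wild-type worms (-0.64 ± 0.09, adjusted p = 0.00018). In 23 of the 33 genes every *nuo-6* library also lay below the wild-type libraries of all 3 batches. The subunit that did not pass the test was *rpn-3* (-0.31).

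Many translation factor and cytosolic aminoacyl-tRNA synthetase genes were lower with it. Of 40 translation factor genes 23 fell and none rose, with subunits of initiation factor 3 leading. *eif-3.L* had 67 to 103 (median 93.1) in *nuo-6* worms, against 152 to 185 (median 166) in wild-type worms (-0.89 ± 0.11, adjusted p = 6.8e-05) and *eif-3.C* had 167 to 304 (median 249) in *nuo-6* worms, against 354 to 476 (median 457) in wild-type worms (-0.86 ± 0.13, adjusted p = 0.00035). Aminoacyl-tRNA synthetases split by their names. Of the 20 whose names end in 1, mostly the cytosolic forms, 17 fell and none rose, whereas of the 12 ending in 2, mostly the mitochondrial forms, 1 fell and 1 rose. The one that fell, *aars-2*, is the cytosolic form for alanine (-0.62 ± 0.12, adjusted p = 0.0012), and the one that rose was mitochondrial *cars-2* (0.73 ± 0.16, adjusted p = 0.0034). *kars-1*, the lysyl-tRNA synthetase, had 192 to 287 (median 257) in *nuo-6* worms, against 356 to 469 (median 431) in wild-type worms (-0.76 ± 0.11, adjusted p = 0.00027). Cytosolic ribosomal protein genes had negative log2 fold changes in 77 of 78 (median -0.24), but 13 passed the test as lower (16.7%, near the 13.8% of all genes tested). Leaving out single libraries moved that count to as few as 4 (without *nuo-6* replicate 6 or wild-type replicate 6), to 6 without wild-type replicate 5 or 8, and to 7 without *nuo-6* replicate 4. edgeR called 5 of them lower, DESeq2 24, scaling by library size alone 27, and the comparison with all 12 wild-type libraries 43. *rpl-25.2* had 567 to 680.1 (median 636) in *nuo-6* worms, against 784 to 954 (median 851) in wild-type worms (-0.43 ± 0.09, adjusted p = 0.0028). The chaperonin that folds actin and tubulin was lower in 3 of 8 subunit genes.

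The germ line is a large tissue of a young adult worm with much protein synthesis, and some of its marker genes moved in the same direction. Of 20 genes of germ granules and meiosis 9 fell (14 against all 12 wild-type libraries) and 1 rose, with summed levels of 2498 to 2822 (median 2686) normalized CPM in *nuo-6* worms, against 3101 to 4547 (median 3746) in wild-type worms, without overlap. *glh-4*, a germline helicase, had 12 to 34.5 (median 24.4) in *nuo-6* worms, against 77.1 to 119 (median 102) in wild-type worms (-2.06 ± 0.21, adjusted p = 1.1e-05), and *pgl-1*, a germ granule scaffold, had 141 to 258 (median 216) in *nuo-6* worms, against 322 to 517 (median 430.4) in wild-type worms (-1.04 ± 0.15, adjusted p = 0.00024). Oocyte and eggshell genes were mostly not called (2 higher and 1 lower of 18, median -0.52), and their sums of 2224 to 6612 (median 4312) in *nuo-6* worms and 2907 to 8491 (median 6111) in wild-type worms overlapped. Against all 12 wild-type libraries 12 oocyte genes were lower. Sperm genes were called higher in 6 and lower in 5 of 73, and the lower count was 2 without wild-type replicate 5 or 8. None of the 6 vitellogenin genes passed the limma test and none had an unadjusted p under 0.05, while edgeR called 1 higher and DESeq2 2. Without *nuo-6* replicate 2, 4 were higher. *vit-2* had 4129 to 30390 (median 19526) in *nuo-6* worms, against 6723 to 13032 (median 9761) in wild-type worms (0.79 ± 0.39, adjusted p = 0.14), while in the summed list 5 of the 6 *nuo-6* libraries lay above every wild-type library of the batch and replicate 2 below them all. The wild-type sums of the other batches, given above, overlapped those of *nuo-6* worms, and against all 12 wild-type libraries no vitellogenin gene was higher and 1 was lower. *asb-1*, which fell while most genes of ATP synthase rose, is known as the germline form of its subunit. The part of the germ line in the falls of proteasome and translation genes was not tested.

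**Figure D4:**
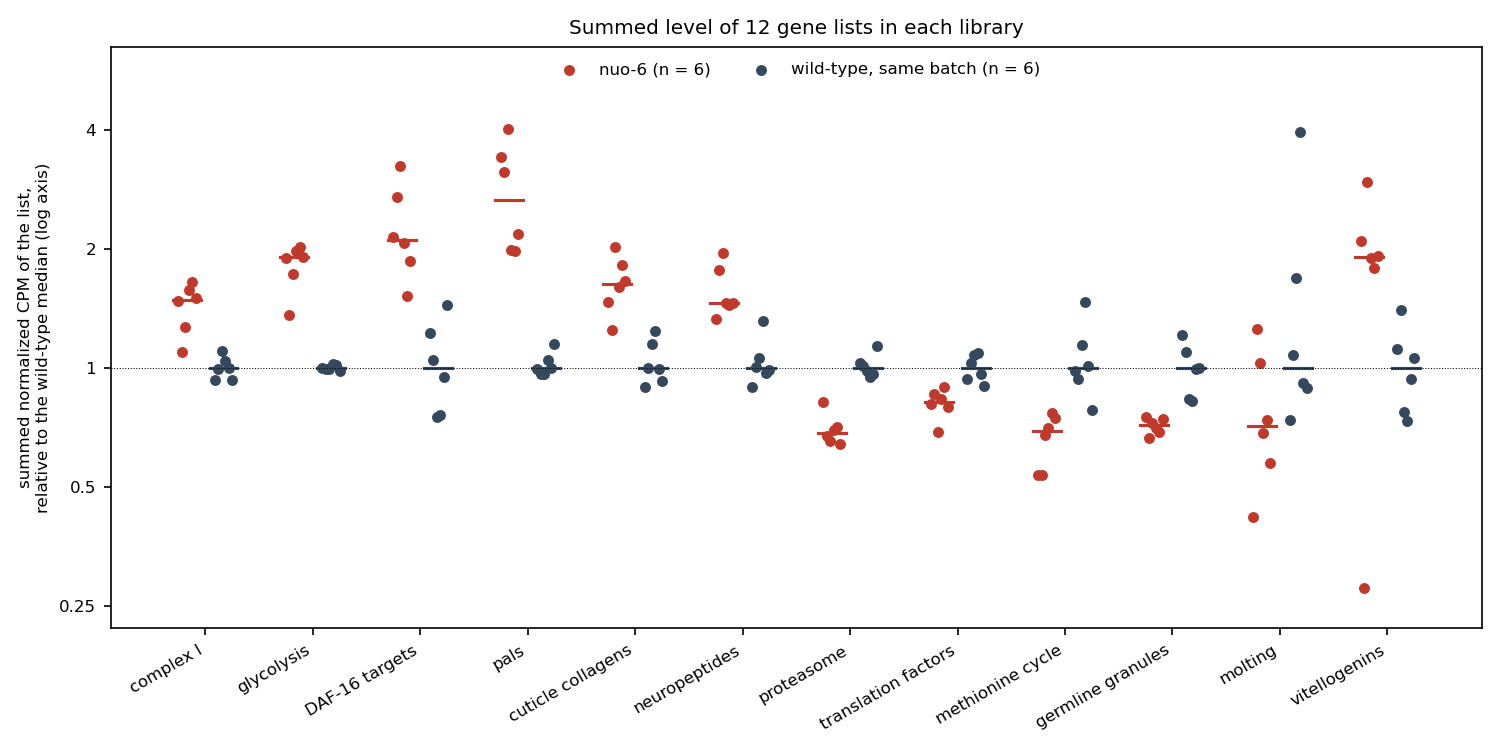
Summed normalized CPM of 12 gene lists in each library, relative to the median of the wild-type libraries (log axis), with *nuo-6* (red, left) and wild-type worms of the same batch (dark, right), 6 libraries each, and the median of each group as a bar. Glycolysis and *pals* genes lie above every wild-type library and the proteasome below, while vitellogenins and molting genes overlap, with *nuo-6* replicate 2 lowest in vitellogenins and wild-type replicate 7 highest in molting genes.

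Cuticle collagen genes moved in both directions. Of 134 cuticle collagen genes 28 rose and 40 fell (20.9% and 29.9%, against 17.6% and 13.8% of all genes tested), and the median was -0.52. All *nuo-6* libraries lay above the wild-type libraries of the batch for 22 genes, and above all 12 wild-type libraries for 5. Yet the summed level of all listed collagen genes, tested or not, was 58301 to 94757 (median 76306) normalized CPM in *nuo-6* worms, against 41841 to 57896 (median 46665) in wild-type worms, without overlap. *col-95* had 231 to 664 (median 289.8) in *nuo-6* worms, against 11 to 55.1 (median 26) in wild-type worms (3.74 ± 0.37, adjusted p = 1.1e-05), and *col-143* had 640.4 to 2123 (median 1899) in *nuo-6* worms, against 215 to 506 (median 354) in wild-type worms (2.28 ± 0.29, adjusted p = 8.3e-05). *col-19*, the marker collagen of the adult cuticle, had 1888 to 4344 (median 3394) in *nuo-6* worms, against 879.5 to 1464 (median 1225) in wild-type worms (1.41 ± 0.18, adjusted p = 8.7e-05).

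Genes of the molting cycle fell in part. Of 19 molting genes 6 were lower and none higher (median -0.77), led by *mlt-10* with 15.1 to 68.8 (median 38.7) in *nuo-6* worms, against 72.3 to 570.3 (median 133) in wild-type worms (-2.13 ± 0.48, adjusted p = 0.0046). Hedgehog-related genes were lower in 12 of 35, patched-related in 10 of 25, astacin proteases in 13 of 26, *abu* and *pqn* genes in 23 of 62 (7 were higher) and cuticlins in 7 of 26. Of these, *wrt-4*, a hedgehog-related gene, had 8.88 to 57.7 (median 19.3) in *nuo-6* worms, against 53 to 318 (median 121) in wild-type worms (-2.65 ± 0.46, adjusted p = 0.00075). These falls rest on the wild-type libraries of batch 2. When *nuo-6* worms were set against all 12 wild-type libraries without a batch term, the number lower came to 2 molting genes, 3 hedgehog-related, 3 patched-related, 5 astacin, 6 *abu* and *pqn*, 2 cuticlin and 4 collagen genes. Of the *abu* and *pqn* genes 15 were higher there, so that more rose than fell. *mlt-10* spanned 6.05 to 131 in wild-type libraries of the other batches, on both sides of the *nuo-6* libraries, and lost its call against all 12. The libraries of this comparison differ in yolk RNA as well as in molting RNA, as given above, and the part of developmental timing was not tested.

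Peptides of the nervous system rose as a family. Of 76 *flp* and *nlp* neuropeptide genes 52 rose and none fell (median 0.53), 27 of them without overlap and 25 above all 12 wild-type libraries. Changes were modest for each gene. *flp-3* had 12.9 to 20.2 (median 17) in *nuo-6* worms, against 6.22 to 8.95 (median 7.61) in wild-type worms (1.10 ± 0.15, adjusted p = 0.00012) and *nlp-20* had 14.6 to 20.9 (median 19.6) in *nuo-6* worms, against 7.73 to 11.9 (median 10.1) in wild-type worms (0.90 ± 0.13, adjusted p = 0.00022). Of 12 neuronal markers 4 rose and none fell (median 0.31), and those 4 were genes for the processing and secretion of neuropeptides: *egl-3*, the proprotein convertase (0.69 ± 0.19, adjusted p = 0.012), its chaperone *sbt-1* (0.66 ± 0.13, adjusted p = 0.002), *egl-21* (0.48 ± 0.16, adjusted p = 0.03) and *ida-1* (0.64 ± 0.15, adjusted p = 0.0049). The other 8 did not pass the test, among them *rab-3* (0.09) and *unc-119* (0.16), which were picked after their values were seen and do not stand for all 8. Of the 12 markers 3 had negative log2 fold changes, the lowest -0.15. The list summed to 659 to 1065 (median 713) normalized CPM in *nuo-6* worms, against 488 to 691 (median 562) in wild-type worms, which overlapped. Of 16 insulin-like peptide genes 6 rose, a count that was 3 without *nuo-6* replicate 3 or 4 and 3 under scaling by library size alone, and *daf-28*, which promotes growth over dauer arrest, did not pass the test (0.26).

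Of 169 nuclear hormone receptor genes 92 rose and 4 fell (median 0.53). *nhr-61* had 40.6 to 68.9 (median 47.6) in *nuo-6* worms, against 5.33 to 7.91 (median 5.71) in wild-type worms (2.91 ± 0.14, adjusted p = 1.2e-08), the largest rise of the family, and *nhr-112* had 3.52 to 9.09 (median 4.96) in *nuo-6* worms, against 0.986 to 1.56 (median 1.16) in wild-type worms (1.81 ± 0.22, adjusted p = 5.1e-05). *nhr-114*, named above with the methionine cycle, had 7.33 to 49.2 (median 21.1) in *nuo-6* worms, against 52.9 to 142 (median 85.9) in wild-type worms, and the wild-type libraries of the other batches held 108 to 156. The summed level of all listed members of the family, tested or not, was 1896 to 2466 (median 1990) normalized CPM in *nuo-6* worms, against 1501 to 1857 (median 1580) in wild-type worms, without overlap. Chemoreceptor genes were hardly measurable in whole worms, with 26 of 1493 listed genes tested.

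Few markers of intestine and muscle passed the test. None of 9 intestinal markers passed the limma test, with 3 higher at an unadjusted p under 0.05 and 1 called higher by edgeR and by DESeq2. Against all 12 wild-type libraries 3 were higher and 1 lower. None of 6 pharyngeal muscle markers passed it, reached an unadjusted p under 0.05 or was called by either tool. In muscle, 3 of 19 filament genes rose, by at most 0.45 on the log2 scale for troponin gene *tni-3*. The count was 7 when *nuo-6* replicate 2 and wild-type replicate 7 were both left out, and 6 against all 12 wild-type libraries. Vacuolar ATPase genes had 1 of 20 called higher, and 14 when *nuo-6* replicate 2 and wild-type replicate 7 were both left out. Among tubulins, *tbb-6*, a beta tubulin known for its induction by mitochondrial stress, had 40.4 to 154 (median 94.7) in *nuo-6* worms, against 1.71 to 50 (median 7.52) in wild-type worms (3.46 ± 0.61, adjusted p = 0.00088), while the main forms *tba-1* (-0.65 ± 0.09, adjusted p = 0.00015), *tbb-1* (-0.39 ± 0.11, adjusted p = 0.012) and *tbb-2* (-0.37 ± 0.09, adjusted p = 0.0097) fell, in a list with 5 lower that became 3 without *nuo-6* replicate 1 or wild-type replicate 5 or 6. Of the other arginine kinases *F46H5.3*, with 2988 to 3669 (median 3583) in *nuo-6* worms, against 1721 to 2510 (median 2022) in wild-type worms (0.74 ± 0.12, adjusted p = 0.00039), and *W10C8.5* (1.28 ± 0.16, adjusted p = 8.6e-05) rose where *argk-1* fell, and the summed arginine kinase RNA was 3337 to 4262 (median 4053) normalized CPM in *nuo-6* worms, against 2195 to 3057 (median 2485) in wild-type worms.

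The largest changes were unevenly placed in the genome. Chromosome V held 77 of the 171 genes that were at least 4-fold higher and 26 of the 46 that were at least 4-fold lower, against 2664 of the 13837 genes tested (19.3%). Some of them were neighbours, such as *argk-1* with *cth-1* and *str-7* (-2.60 ± 0.35, adjusted p = 0.00013), *D1014.6* with *D1014.7*, and *ZK218.5*, *ZK218.7* and *ZK218.11*, so the counts are not of independent genes.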

How the data were processed

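RNA of whole worms was sequenced as 75 bp single reads from stranded, polyadenylated mRNA libraries. The authors aligned reads with STAR 2.5.2b and processed counts with edgeR 3.20.1, per the submitters' notes, and deposited library-scaled CPM (read counts on genes at a common library size) for 46739 genes and, for genes passing their filter, normalized CPM, a signal on their between-library scaling. No columns of per-sample values were left unmapped. 

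Here limma 3.58.1 (R 4.3.3; trend, empirical Bayes, two-sided) was run on log2(normalized CPM + 0.5) of the 12 batch 2 libraries, with Benjamini-Hochberg adjustment over 13837 genes and calls at an adjusted p under 0.05. edgeR 4.0.16 and DESeq2 1.42.0 were run on whole reads recovered from the CPM (100% of values whole within 0.01 reads). Scripts were tested on simulated data. Alternatives were other pseudocounts, filters, scalings, thresholds and sample sets, a stage index, a replicate block and leaving out each library. Positions are from Ensembl 115 (WBcel235).

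The comparison and the 75 gene lists were chosen with earlier results of these data known, so lists get counts and medians beside those of all genes. Counts and medians are of the members tested, while the summed levels also include listed genes outside the authors' filter, on the same scaling. Genes named are the 12 largest rises and falls with a mean of at least 5 normalized CPM in either group and no overlap, up to 4 called members of each list with a mean of at least 1, and 8 fixed genes. A few others, chosen after their values were seen, are *aars-2*, *alh-8*, *asb-1*, *cbs-1*, *col-19*, *daf-28*, *ech-6*, *egl-9*, *ethe-1*, *gpd-1*, *gpd-4*, *hif-1*, *hsp-16.2*, *hsp-70*, *lys-2*, *mce-1*, *mmcm-1*, *nduf-2.2*, *nhr-68*, *pccb-1*, *rab-3*, *rhy-1*, *rpn-3*, *sucg-1*, *tba-1*, *tbb-1*, *tbb-2*, *tbc-8*, *unc-119* and *vhl-1*. A search pattern for chemoreceptors was corrected after values were seen. Promoter motifs were not analysed here.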

Additional observations from a re-analysis of the deposited data

Results flagged for a closer look

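In 40 of 334 groups of 6 libraries, over the 167 genes named in the text, 1 library stood far from the other 5 by Dixon's criterion (12% of the groups). The criterion's chance rate of about 1 in 20 is for normally distributed values. It was applied to untransformed normalized CPM, some of them 0 in all but 1 library, so the 12% does not show an excess. Of these values, 9 lay in *nuo-6* replicate 2, 5 in *nuo-6* replicate 3, 8 in wild-type replicate 9 and 4 in wild-type replicate 7.

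Values are normalized CPM, with the nearest other library of the group beside them. *nuo-6* replicate 1 lay above the others for *gpd-1* (67.2, next 44.4) and *gpd-4* (36.1, next 24.3). *nuo-6* replicate 2 lay above the others for *ftn-1* (35.7, next 15.1), *mtl-1* (170.2, next 59.7), *pgp-6* (18.1, next 6.26), *srp-5* (0.0362, next 0), *clec-17* (45.2, next 21.6) and *acs-20* (66.1, next 31.7) and below the others for *col-143* (640.4, next 1852), *gas-1* (232, next 315) and *gpd-2* (648, next 1004). *nuo-6* replicate 3 lay above the others for *hsp-70* (3405, next 1220), *sbp-1* (135, next 82.8), *str-7* (0.275, next 0.0861) and *lin-65* (52.5, next 42) and below the others for *eif-3.L* (67, next 89.6). *nuo-6* replicate 4 lay above the others for *nhr-61* (68.9, next 49), *tbc-8* (0.0431, next 0) and *ZK218.7* (0.129, next 0). *nuo-6* replicate 5 lay above the others for *gst-44* (107, next 32.9), *cyp-13A12* (127, next 45.2) and *clec-258* (0.0446, next 0). *nuo-6* replicate 6 lay below the others for *nlp-20* (14.6, next 19.3). Wild-type replicate 4 lay above the others for *F22B3.7* (0.0841, next 0). Wild-type replicate 5 lay above the others for *gst-33* (2.88, next 1.51), *lipl-1* (28.9, next 8.74) and *sodh-1* (142, next 52.5). Wild-type replicate 6 lay above the others for *hsp-70* (986, next 82). Wild-type replicate 7 lay above the others for *asb-2* (762, next 541), *egl-3* (171, next 125), *ftn-1* (3.45, next 1.91) and *trxr-2* (13, next 11). Wild-type replicate 9 lay above the others for *tbb-6* (50.02, next 9.71), *pals-6* (4.14, next 0.948), *mce-1* (43.4, next 35), *pals-14* (4.33, next 0.758), *cdr-4* (175, next 74.1) and *ZK177.9* (0.152, next 0.0426) and below the others for *coq-8* (71, next 89.7) and *ldh-1* (61.2, next 77.6). The *pals* genes *pals-6* and *pals-14*, *tbb-6* and *cdr-4* were thus highest together in wild-type replicate 9. No cause was tested.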

How the results depend on the processing

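Of 167 named genes, none changed direction under any alternative, and all 167 kept their side of the threshold with a pseudocount of 0.1 or 2 normalized CPM. Most were named because they were called, many without overlap of the groups, so a change of direction was hardly possible for them. The other thresholds and the fit of all 43 libraries with a batch term also keep the fold changes of the main fit. With a threshold of 0.01 on the adjusted p, 2459 genes were called (1534 higher, 925 lower), and with a change of at least 2-fold besides, 1397 (888 higher, 509 lower). The count of genes lower rose to 2964 with the stage index as a covariate, which summarised reproductive and molting RNA in each library and was computed from genes that were themselves tested. edgeR on recovered reads called 4308 and DESeq2 4994. Leaving out 1 library at a time gave 3550 to 4591 genes called, 2038 to 2519 of them higher and 1505 to 2072 lower. *dct-1* and *lipl-1* lost their calls without any one of 7 libraries, and *egl-21* without any one of 4.

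The replicate numbers 4, 5 and 6 occur in both groups. Same-numbered libraries deviated from their group means with correlations of 0.23, 0.07 and -0.39, so the numbers were not taken to pair them. With the number as a replicate block, 2105 genes were called (1416 higher, 689 lower), in a fit with fewer residual degrees of freedom. Every other number occurs in a single group, so in this fit the contrast rests on libraries 4, 5 and 6 of each group alone. The changes below can therefore come from the smaller set of libraries as well as from the block. Of the named genes 29 lost their calls, *hsp-6* and *atfs-1* among them, and the median log2 fold change changed sign for fatty acid synthesis (0.17), lysozymes (-0.27) and C-type lectins (0.20).

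2 alternatives were chosen after the data were seen. Against all 12 wild-type libraries without a batch term, 5934 genes were called, and the median changed sign for regulators of the mitochondrial unfolded protein response (0.22), mitochondrial ribosomal proteins (-0.13) and lysozymes (-0.40). Leaving out *nuo-6* replicate 2 and wild-type replicate 7 together gave 4743. The cause of these changes was not tested.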

Other observations

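A gene outside the naming rule, *tbc-8*, was picked after its values were seen. *tbc-8* encodes a protein with a TBC domain. The *nuo-6* libraries together held 1 read of it, against 723 reads in the wild-type worms of the batch, a wild-type over *nuo-6* ratio of 710 with a 95% counting interval of 127 to 28063, which covers counting error only. Its normalized CPM were 0 to 0.0431 in *nuo-6* worms, against 4.33 to 5.16 in wild-type worms of the batch and 3.35 to 5.88 in those of batches 1 and 3. The libraries labelled NA238 held 0.0408 to 0.0635 and those labelled *nuo-6;hif-1* 3.92 to 7.59. No cause was tested.

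The unfiltered table adds 10107 genes to those tested. In a fit without the filter 782 of them were called, 594 of them higher in *nuo-6* worms.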
